A study of Rattus norvegicus with 7 samples.

Results

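Genes of cholesterol synthesis, of its feedback control and of lipoprotein uptake were described in the brains of rats bred for high or low alcohol preference. The 8 genes are Hmgcs1, Idi1, Fdps, Fdft1, Sqle and Lss, which encode enzymes of the pathway, Insig1, which encodes its sterol sensor partner, and Apoe, which encodes the lipoprotein ligand of brain. All probes whose RefSeq transcript accession, without its version, belongs to one of these rat genes were taken. This gave 10 probes of 7 genes, out of 33849 transcript probes on the array, of which 7207 could be named through RefSeq. No probe matched Insig1 by this rule, so Insig1 has no value here.

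The rats were adult males of Wistar strain after selective breeding, and total RNA of the whole brain was measured. The alcohol-preferring line (P) is represented by 4 rats, P 1 to P 4, and the non-preferring line (NP) by 3 rats, NP 2 to NP 4, after the authors left out an NP array on quality grounds. All 7 were housed in pairs and had not been given alcohol, and each was measured on its own 1-colour array with biotin label. Each direction of selection is represented by 1 line, and whole brain RNA mixes all regions and cell types, so a change in the number of cells of a type cannot be told apart from a change in RNA per cell. Probes above background made up 77.9% to 81.6% of each P array and 81.5% to 85.9% of each NP array. The file headers carry a project field that puts NP 2, NP 3, P 1 and P 2 in project 1 and NP 4, P 3 and P 4 in project 2. They also carry 3 dates: project 1 has date 1, NP 4 has date 2, and P 3 and P 4 have date 3. P was set against NP to find transcripts that differ in brains without any exposure to alcohol, and the number of arrays, 7, limits the precision.

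Cholesterol in the brain is made locally, because lipoproteins of the blood hardly cross the blood-brain barrier. The pathway joins acetyl-CoA units to HMG-CoA (Hmgcs1) and goes on through mevalonate to isoprene units whose isomers Idi1 interconverts. Fdps joins these to farnesyl diphosphate, Fdft1 makes squalene, Sqle oxidises it and Lss closes the ring to lanosterol. The transcription factor SREBP-2 drives these genes together when membrane sterol is low, and INSIG1 holds its escort SCAP in the endoplasmic reticulum when sterol is plentiful. Oligodendrocytes need much cholesterol for myelin, and astrocytes secrete APOE particles that neurons take up through lipoprotein receptors.

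None of the 9 tested probes, for 7 of the genes, passed the test between the lines over all 7 rats. In this comparison 0.29% of all 29003 tested probes were called, where a call is an adjusted p under 0.05 by limma with Benjamini-Hochberg adjustment over all tested probes. Of the 9 probes, 6 had a higher and 3 a lower mean in P, and 0 had an unadjusted p under 0.05, against 11.5% of all tested probes. The adjusted p-values lay between 0.435 and 0.979. The median P minus NP difference of the 9 probes was 0.04 on the log2 scale, beside 0.01 over all tested probes, and the median size of a difference was 0.13, beside 0.14 over all. Differences are given below as P minus NP in log2 normalized signal, with the standard error of the fit.

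Sequence upstream of the start site is shown for Hmgcs1, Idi1 and Fdps, which had positive correlations with each other over the 7 rats, and for Lss, which had negative ones with them. The Pearson r of Lss was only -0.12 with Hmgcs1, -0.39 with Idi1 and -0.31 with Fdps. Fdft1, which also had a positive r with Hmgcs1, Idi1 and Fdps, and Sqle had no window to show. The 4 genes shown were chosen with those values known, and the Pearson r of Hmgcs1 and Idi1 was 0.81, or 0.11 without P 1 and P 2. Each window holds the 250 bases before the start in the GRCr8 build, from RefSeq, in lower case with CCAAT, the box bound by NF-Y, in capitals on either strand (ATTGG where it lies on the other strand).
Hmgcs1, chr2:53382054-53382303, plus strand: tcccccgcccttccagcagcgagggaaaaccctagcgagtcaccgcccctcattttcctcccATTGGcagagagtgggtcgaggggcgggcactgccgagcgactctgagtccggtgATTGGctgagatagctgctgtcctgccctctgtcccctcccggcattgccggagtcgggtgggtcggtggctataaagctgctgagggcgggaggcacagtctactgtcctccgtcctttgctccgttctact
Idi1, chr17:66547525-66547774, minus strand: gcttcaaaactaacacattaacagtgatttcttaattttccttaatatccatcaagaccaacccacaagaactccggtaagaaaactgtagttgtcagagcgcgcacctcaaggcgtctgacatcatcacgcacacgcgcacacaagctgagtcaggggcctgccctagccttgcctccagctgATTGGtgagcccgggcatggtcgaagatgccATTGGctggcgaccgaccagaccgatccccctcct
Fdps, chr2:176804817-176805066, minus strand: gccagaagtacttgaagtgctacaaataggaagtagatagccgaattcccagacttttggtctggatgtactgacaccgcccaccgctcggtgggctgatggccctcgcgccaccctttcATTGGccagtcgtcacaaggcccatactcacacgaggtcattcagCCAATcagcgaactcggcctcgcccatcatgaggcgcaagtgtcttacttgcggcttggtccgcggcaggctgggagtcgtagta
Lss, chr20:12118231-12118480, minus strand: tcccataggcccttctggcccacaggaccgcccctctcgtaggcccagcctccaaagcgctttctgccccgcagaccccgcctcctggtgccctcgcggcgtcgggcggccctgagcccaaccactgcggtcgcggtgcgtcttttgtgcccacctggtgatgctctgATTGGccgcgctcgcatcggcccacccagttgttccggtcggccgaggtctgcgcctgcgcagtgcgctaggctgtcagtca
The windows of Hmgcs1, Idi1 and Fdps held 2 CCAAT boxes each and that of Lss held 1. The window of Insig1 also held 1, as did 1 of the 3 windows of Apoe, so all 6 member genes with an entry had a box, in 6 of their 8 windows. Of all 33469 windows of this length, 34.0% held at least 1. The windows of Cyp51 and Ggps1, whose profiles over the 7 rats were close to the enzyme mean (below), held 0 and 1. Those of the sterol enzyme genes Mvk and Nsdhl held 5 each. Whether the number of boxes goes with the profile of a gene was not tested. A sterol regulatory element spelled TCACNCCAC on either strand was in none of the 8 member windows, and in 0.974% of all windows. Only this exact spelling was searched, so elements spelled otherwise were not counted. These are matches of letters in a short window and say nothing of binding.

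The largest difference among the 9 probes was that of Idi1, isopentenyl-diphosphate delta isomerase. Its probe read 8.19, 7.63, 8.69 and 8.60 in P 1 to P 4 and 8.84, 8.97 and 8.55 in NP 2 to NP 4, in log2 normalized signal. P 1 and P 2 lay below every other rat, while P 3 and P 4 lay among the NP values, so the lines overlapped. The P mean was 8.28 ± 0.48 (SD, n = 4). The NP mean was 8.79 ± 0.21 (SD, n = 3). The difference of -0.51 ± 0.23, a 1.43-fold lower mean in P, did not pass (limma adjusted p = 0.435), and its 95% confidence interval ran from -1.03 to 0.01. Without P 2 the difference was -0.30.

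Hmgcs1, the cytosolic HMG-CoA synthase, was also lower in P 1 and P 2 than in the other rats. Probe GE1213846 read 11.58, 11.65, 12.08 and 12.11 in P 1 to P 4 and 12.04, 12.01 and 11.90 in NP 2 to NP 4. P 1 and P 2 were the lowest of the 7 rats and P 3 and P 4 the highest. The difference of -0.13 ± 0.16 did not pass (limma adjusted p = 0.75, 95% confidence interval -0.48 to 0.21). A further probe of this gene, GE20461, carried a quality flag that removed its spot on 5 of 7 arrays and had values in P 3 (8.63) and P 4 (8.78) alone, so it could not be tested.

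**Figure D1:**
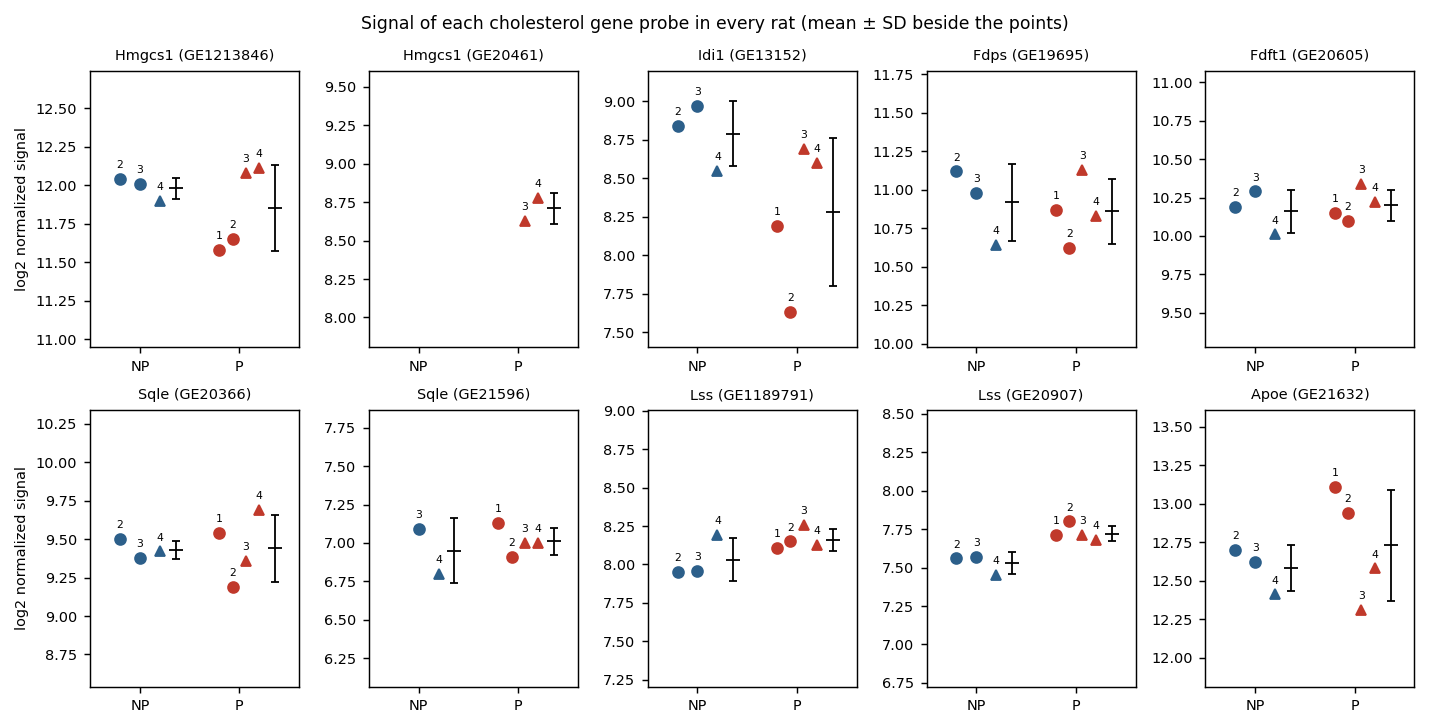
Log2 normalized signal of the 10 probes in each rat of the NP line (blue) and the P line (red), with the replicate number above each point, circles for header project 1, triangles for header project 2, and the mean ± SD in black beside each group. The panels share one height in log2 units, and Idi1 has the widest spread, from 7.63 in P 2 to 8.97 in NP 3.

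Fdps, farnesyl diphosphate synthase, read 10.87, 10.62, 11.13 and 10.83 in P 1 to P 4 and 11.12, 10.98 and 10.64 in NP 2 to NP 4. P 2 and NP 4 were lowest and the lines overlapped throughout. The difference was -0.06 ± 0.16 (limma adjusted p = 0.904), with a 95% confidence interval from -0.41 to 0.29. Fdft1, squalene synthase, read 10.15, 10.10, 10.34 and 10.22 in P and 10.19, 10.29 and 10.01 in NP. Its range over the 7 rats was narrower than those of Hmgcs1, Idi1 and Fdps, and its difference of 0.04 ± 0.12 had an interval from -0.23 to 0.30.

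Sqle, squalene epoxidase, a rate-limiting step after squalene, was measured by 2 tested probes. GE20366 read 9.54, 9.19, 9.36 and 9.69 in P 1 to P 4 and 9.50, 9.38 and 9.42 in NP 2 to NP 4. The P rats held both the lowest and the highest value. The difference was 0.01 ± 0.14 (limma adjusted p = 0.979, 95% confidence interval -0.29 to 0.32). The dimmer GE21596 read 7.13, 6.91, 7.00 and 7.00 in P and 7.09 and 6.80 in NP 3 and NP 4, with NP 2 flagged, and differed by 0.06 ± 0.14.

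Lss, lanosterol synthase, was the one gene of the 7 with a probe on which the lines did not overlap. Probe GE20907 read 7.71, 7.80, 7.71 and 7.68 in P 1 to P 4, above the 7.56, 7.57 and 7.45 of NP 2 to NP 4. Its difference of 0.20 ± 0.11, or 1.15-fold, did not pass (limma adjusted p = 0.481, 95% confidence interval -0.04 to 0.43). Non-overlap held for 1 of the 8 tested member probes with 7 values, beside 13.3% of all 27255 such probes. A further Lss probe, GE1189791, read 8.11, 8.15, 8.26 and 8.13 in P and 7.95, 7.96 and 8.19 in NP, so NP 4 lay among the P rats. It differed by 0.13 ± 0.12, in the same direction. The 2 Lss probes had a Pearson r of 0.30 over 7 rats and the 2 Sqle probes 0.33 over 6, so probes of 1 gene ordered the rats only loosely alike where all differences were small.

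Apoe, the main apolipoprotein made in brain, chiefly by astrocytes, read 13.11, 12.94, 12.31 and 12.58 in P 1 to P 4. It read 12.70, 12.62 and 12.41 in NP 2 to NP 4. P 1 and P 2, the lowest rats for Idi1 and Hmgcs1, were the highest of the 7 here, and P 3 was the lowest. The difference between the lines was 0.16 ± 0.19 (limma adjusted p = 0.75, 95% confidence interval -0.26 to 0.57). The summed signal of the 7 astrocyte markers, all above background on every array, ran from 13.59 to 13.76 in P and from 13.65 to 13.79 in NP on the log2 scale. It was 13.75 in P 1, 13.68 in P 2, 13.59 in P 3 and 13.76 in P 4, and the brightest markers weigh most in it. The single markers did not share one order. Gfap, the astrocyte filament protein, read 9.17, 9.28, 8.42 and 8.61 in P and 8.96, 8.91 and 8.10 in NP, highest in P 1 and P 2 as Apoe was. Aldh1l1, an astrocyte folate enzyme, was also highest there, with 9.82, 10.00, 9.31 and 9.39 in P and 9.35, 9.66 and 9.25 in NP. Aqp4, the water channel of astrocyte endfeet, was lowest in P 1 and P 2, with 9.23, 8.72, 9.33 and 9.58 in P and 9.87, 9.54 and 9.58 in NP. The part of cell composition in these values was not tested.

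Among the rats that share date 1 (P 1, P 2, NP 2 and NP 3) Idi1 was lower in P, by -0.99 ± 0.18 (limma adjusted p = 0.0232). This was 1 of 9 member probes called within date 1, beside 6.47% of all probes, 1.88% higher and 4.59% lower in P. A fit of all 7 rats with the header date as a block takes its line difference from those same 4 rats. For Sqle GE21596, flagged in NP 2, both of these fits set P 1 and P 2 against NP 3 alone. The fit with the date block is given next. This fit gave Idi1 a 1.99-fold lower mean in P (-0.99 ± 0.18, limma adjusted p = 0.0219, 95% confidence interval -1.39 to -0.60). Again 1 of 9 member probes was called, beside 5.72% of all probes, 1.65% higher and 4.07% lower in P, so a single call is not far from that background. Hmgcs1 differed by -0.41 ± 0.12 with the block (adjusted p = 0.0742), Fdps by -0.31 ± 0.15 (adjusted p = 0.226) and Apoe by 0.36 ± 0.14 (adjusted p = 0.147), by limma, and these did not pass. With the header project as a block, added after the values were seen, 0 of the 9 were called by limma, and Idi1 stood at -0.56 ± 0.22 (adjusted p = 0.186). Of all probes 0.838% were called in that fit, 0.341% higher and 0.497% lower in P.

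**Figure D2:**
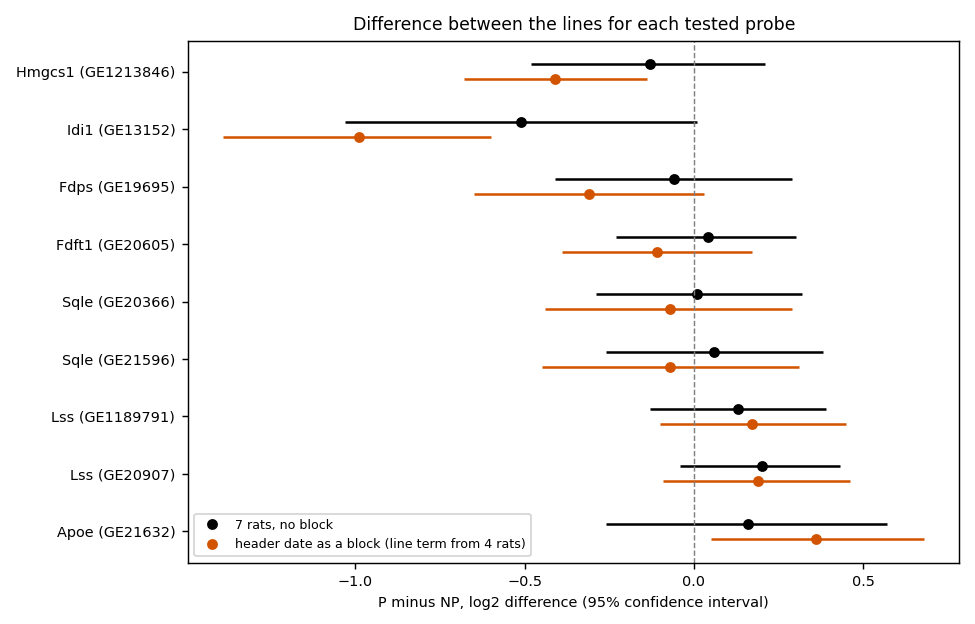
P minus NP log2 difference (points) with its 95% confidence interval (lines) for the 9 tested probes, over all 7 rats without a block (black) and with a block for the header date (orange). The block compares 4 rats for all probes but Sqle GE21596. That probe was flagged in NP 2, so P 1 and P 2 are set against NP 3 alone. With the block Idi1 moves from -0.51 to -0.99 and its interval ends at -0.60. The intervals of Hmgcs1 (-0.68 to -0.14) and Apoe (0.05 to 0.68) also leave out 0 with the block, though neither gene passed by limma. Those of both Sqle probes and both Lss probes include 0 in each fit. The intervals are not adjusted for the number of probes.

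In project 2 the Idi1 values of the lines lay close together. There P 3 and P 4 had a mean of 8.64 and NP 4 read 8.55, a difference of 0.09 with a single NP rat and so no test. Hmgcs1 differed by 0.19 and Fdps by 0.34 in project 2, with the opposite sign to project 1. Apoe differed by 0.03 there and by 0.36 in project 1. Whether the line difference itself changed between the projects was tested as an interaction over all probes with 7 values, an analysis added after the values were seen. In project 2 it rests on NP 4 alone, which is assumed to vary like the other rats, and NP 4 has another date than P 3 and P 4, so line and date cannot be told apart there. The interaction was -1.08 ± 0.28 for Idi1 (limma adjusted p = 0.103), -0.61 ± 0.19 for Hmgcs1 (adjusted p = 0.148) and -0.65 ± 0.24 for Fdps (adjusted p = 0.192). None of the 8 member probes passed by limma, 3 had an unadjusted p under 0.05, and 0.62% of all probes passed, with 18.6% at an unadjusted p under 0.05. Among P rats the project splits the rats as the date does, so project, date and the particular rats P 1 and P 2 cannot be told apart.

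Across the 7 rats Idi1 and Hmgcs1 had a Pearson r of 0.81, Idi1 and Fdps 0.69, Hmgcs1 and Fdps 0.56, and Fdps and Fdft1 0.80. Without P 1 and P 2, the rats farthest from the median of the enzyme mean, these were 0.11, 0.62, 0.60 and 0.79 over 5 rats, so the likeness of Idi1 and Hmgcs1 rests on those rats. Of the 15 pairs among the 6 enzymes, 10 had a positive r over 7 rats, with a median of 0.35, and all 5 negative pairs involved Lss, down to -0.39 with Idi1. Without P 1 and P 2, 7 pairs had a positive r and the median was -0.01. Apoe had an r of -0.81 with Hmgcs1 and -0.62 with Idi1, which became 0.18 and 0.57 without P 1 and P 2. These values describe 7 rats of both lines that share projects and dates. Against the mean centred profile of the 6 enzymes Apoe had an r of -0.64, which became 0.17 without those rats, so the inverse relation rests on them.

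**Figure D3:**
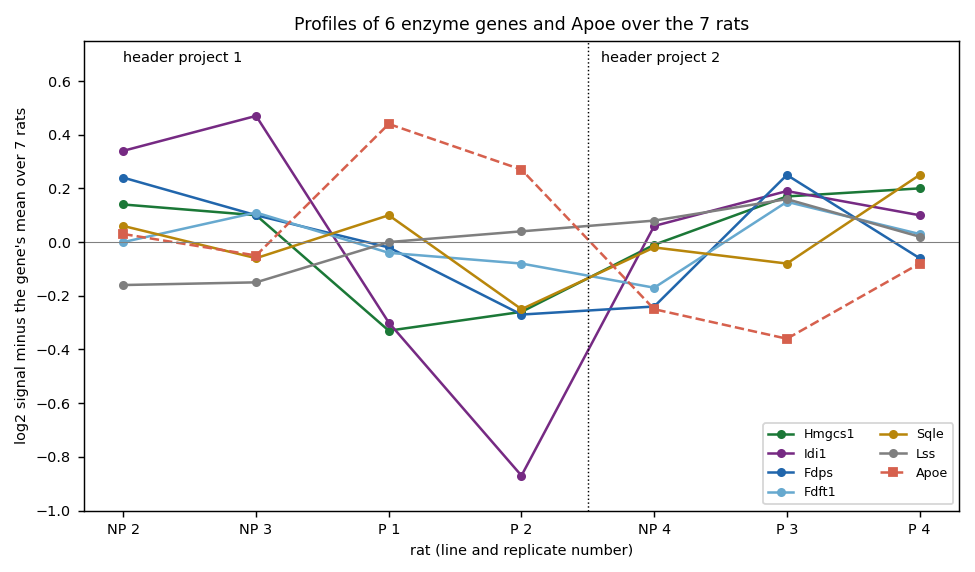
Log2 signal of each gene minus its own mean over the 7 rats, for the brightest probe of 6 enzyme genes (solid lines) and Apoe (dashed), with rats ordered by header project and line. Lines join the rats only to guide the eye. Idi1 falls to -0.30 in P 1 and -0.87 in P 2, where Apoe stands at 0.44 and 0.27.

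The gene of the wider lipid lists with the profile most like the enzymes was Cyp51, lanosterol demethylase, the step after Lss. It had an r of 0.98 with the enzyme mean, in which Idi1 weighs most through its wide spread, and ranked 4 among 5339 named genes. Cyp51 read 8.21, 7.75, 8.67 and 8.60 in P 1 to P 4 and 8.59, 8.78 and 8.36 in NP, again lowest in P 1 and P 2. Ggps1, which makes geranylgeranyl diphosphate from the same precursors, had an r of 0.94 and ranked 30. Without P 1 and P 2 the values were 0.85 for Cyp51 and 0.83 for Ggps1. The next of these lists, Apod (0.77), Elovl6 (0.76) and Acat2 (0.73), had values of -0.56, 0.09 and -0.73 without those rats. Over all named genes the 5 highest were Nup88 (0.99), Bcap31 (0.98), Zfp105 (0.98), Cyp51 and Prdx1 (0.97). Without P 1 and P 2 Nup88 had 0.93, Bcap31 0.96, Zfp105 0.94 and Prdx1 0.97, all above Cyp51. A likeness that stayed without those rats was therefore not particular to genes of the sterol pathway. High values were common, since 10% of all named genes had an r of 0.76 or more.

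The other enzymes of sterol synthesis were measured for 14 of 15 listed genes. Over all 7 rats 0 passed by limma, beside 0.29% of all tested probes. An unadjusted p under 0.05 was found for 1, beside 11.5% of all tested probes. The median difference was -0.09, beside 0.01 over all. The smallest p was that of Msmo1, a sterol C4 demethylation enzyme. It read 11.08, 10.94, 10.86 and 10.84 in P and 11.18, 11.21 and 11.17 in NP, a difference of -0.25 ± 0.11 (limma adjusted p = 0.423). Every P value lay below every NP value, while 13.3% of all 27255 probes with 7 values did not overlap in either direction. Tm7sf2, a sterol reductase, went the other way, with 10.10, 10.14, 9.93 and 9.86 in P above 9.79, 9.76 and 9.72 in NP (0.25 ± 0.12, limma adjusted p = 0.436). With date as a block 1 of the 14 was called, Cyp51 (-0.70, limma adjusted p = 0.0409), beside the 5.72% of all probes.

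Genes of sterol sensing were the least covered, with 4 of 9 measured. By limma 0 were called, beside 0.29% of all tested probes, and 0 had an unadjusted p under 0.05, beside 11.5%. Srebf1, Srebf2 and Scap were among those without a matched probe, so neither the transcription factors nor their escort could be followed. Nr1h2, the oxysterol receptor LXR-beta, read 9.70, 9.51, 9.01 and 9.22 in P and 9.23, 8.97 and 8.89 in NP, highest in P 1 and P 2 as Apoe was (0.33 ± 0.17, limma adjusted p = 0.472). Nr1h3, LXR-alpha, differed by 0.17 ± 0.14 over 4 P and 2 NP values. Insig2, the relative of Insig1, differed by 0.04 ± 0.12 on its brighter probe and by -0.26 on the other.

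Of the lipoprotein receptors and lysosomal release genes 8 of 13 were measured, with a median of -0.06, beside 0.01 over all tested probes. By limma 0 were called, beside 0.29% of all tested probes, and 1 had an unadjusted p under 0.05, beside 11.5%. That was Lrp2, megalin, a large endocytic receptor that binds APOE particles. It read 6.81, 7.11, 6.69 and 6.66 in P, below the 7.32, 7.20 and 7.36 of NP, and its difference of -0.48 ± 0.14 did not pass (limma adjusted p = 0.285). Such non-overlap of the lines held for 13.3% of all probes with 7 values. Vldlr, a receptor of APOE and reelin, differed by -0.18 ± 0.12.

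Among genes of sterol export and turnover 10 of 15 were measured, with a median of 0.13, beside 0.01 over all tested probes. By limma 0 were called, beside 0.29% of all tested probes, and 2 had an unadjusted p under 0.05. Over the 5 lists other than the members 4 of 46 tested genes had such a p, beside 11.5% of all tested probes. Lcat, which esterifies cholesterol on lipoproteins, had the smallest p of all 46 other lipid genes tested. It read 8.45, 8.34, 8.55 and 8.31 in P, above the 8.13, 7.86 and 7.80 of NP (0.48 ± 0.13, limma adjusted p = 0.26). Here too the 13.3% of all probes with 7 values that did not overlap is the background. Abca1, which loads lipid onto APOE, differed by 0.35 ± 0.14 (limma adjusted p = 0.397), but its probe was above background on 1 of 3 NP arrays. In fatty acid synthesis 10 of 12 genes were measured. By limma 0 were called, beside 0.29% of all tested probes, and 0 had an unadjusted p under 0.05, beside 11.5%. The lowest p there were those of Acaca, acetyl-CoA carboxylase (-0.29 ± 0.15, above background on 2 of 4 P arrays), and Acly, ATP citrate lyase (-0.30 ± 0.16), and the median was 0.00.

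**Figure D4:**
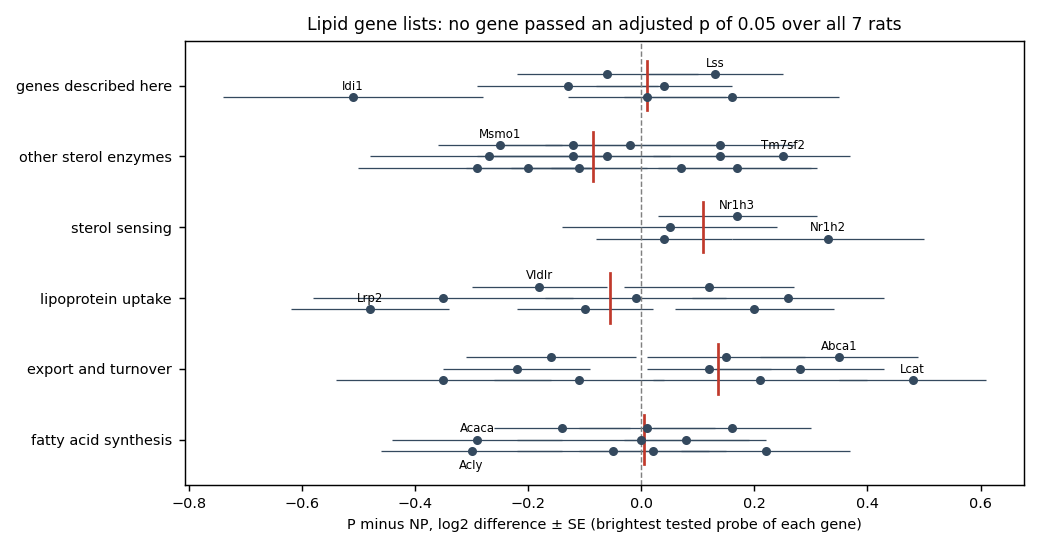
P minus NP log2 difference ± SE over all 7 rats for the brightest tested probe of each gene in the 6 lipid lists, with the list median as a red bar and the 2 genes of smallest p in each list named. The differences run from -0.51 for Idi1 to 0.48 for Lcat, and no gene passed by limma.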

How the data were processed

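The authors deposited 1-colour scanner tables, which per the file headers give spot and background intensity, a subtracted and a scaled intensity and a quality flag for each spot, and a table of log2 values. Each deposited log2 column tracks that array's own scaled intensity after log2 (lowest r 0.9985), with column medians from -0.07 to 0.05. Any further adjustment between arrays, and the scanner software, are not given here.

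Signals were computed in R 4.3.3 with limma 3.58.1: normexp correction (offset 50), quantile normalization over the 33849 transcript probes, and log2. Spots with quality flag M, I or C became missing. A minimum of 3 arrays above background left 29008 probes, of which 29003 could be fitted with lmFit and eBayes, two-sided, with no block. RefSeq accessions of the GRCr8 table named the probes, and a listed gene was represented by its brightest tested probe. Replicates are separate rats, per the series' design text. On simulated data for P minus NP with 29003 probes, the fit recovered 15% of simulated log2 changes sized 0.5, 94% of those sized 1 and 100% of those sized 2. False calls made up 4.68% of calls. The simulated noise was normal and independent between arrays, with the spread of each probe taken from the fit. It held no effect of date or project, so these rates need not hold for the real arrays.

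The members, lists and tests were chosen with earlier results of these data known. Named are every member probe, called genes and the 2 of smallest p in each list, and the 5 genes, of all and of the lists, most like the enzyme mean. Insig2 and the cell type markers were named besides, after their values were seen. Single values of some listed genes are not reported here. The settings varied were the background correction, the normalization, the filter, the authors' values, a variance prior, array weights, blocks and left-out arrays. Figures used matplotlib 3.10.9.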

Additional observations from a re-analysis of the deposited data

Results flagged for a closer look

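In P 2 the signal of Apod, a lipid carrier of glia, was 9.80, below the 10.52 to 10.56 of the other P rats. In P 1 the signal of Vldlr was 8.25, above the 7.98 of the other P rats. These lone distant values were 2 of 28 sets of 4 P values examined, where chance flags about 1 in 20 sets, or 1.4 here.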

How the results depend on the processing

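No member probe was called by limma under 19 of the 21 alternatives, in which the median member difference lay between -0.04 and 0.09. With the header date as a block and within date 1, 1 member probe was called, Idi1, and the median was -0.07 in both. Idi1 stayed lower in P under all alternatives, from -0.30 without P 2 to -0.99. No alternative left out both P 1 and P 2, the lowest rats for Idi1, so the constant sign does not show independence from them. In project 2, with a single NP rat, the Idi1 difference was 0.09. The number of probes called over the whole array was 84. It was 51 in the authors' values, 49 with probes above background on all arrays, 151 with array weights, 1654 with date as a block, 1867 within date 1 and 243 with header project as a block (added after the data were seen). It ran from 51 to 121 with 1 array left out. Calls higher in P made up 28.8% with the date block and 46.4% without a block.

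Of 188 single probe values, 18 changed sign, With array weights Fdft1 was -0.01 and Sqle GE21596 -0.00. With date as a block and within date 1 Fdft1 was -0.11 and both Sqle probes -0.07, and with header project as a block Sqle GE20366 was -0.00. With 1 array left out Fdps ran from -0.19 to 0.05, Fdft1 from -0.04 to 0.10, Sqle GE20366 from -0.07 to 0.10 and Sqle GE21596 from -0.08 to 0.21. The cause was not tested.

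Same-numbered rats of the lines had correlations of 0.10, 0.06 and 0.02 between their deviations. These values gave no sign that the replicate numbers of the titles pair the rats, but so few pairs cannot show that there was no pairing. With the replicate block 102 probes were called, 0 of them member probes (median 0.03), and Sqle GE20366 was -0.02.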

Other observations

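The 7 marker lists of brain and other cell types held 40 genes, of which 32 were tested. Over all 7 rats 0 were called by limma, beside 0.29% of all tested probes. An unadjusted p under 0.05 was found for 5 of the 32, beside 11.5% of all tested probes. All 5 had a lower mean in P: Aif1 (-0.81 ± 0.24) and P2ry12 (-0.31 ± 0.13) of microglia, Aqp4 (-0.45 ± 0.19) of astrocytes, Mog (-0.45 ± 0.16, with values in 2 of 4 P rats) of oligodendrocytes and Kcne2 (-0.32 ± 0.13) of choroid plexus. Their adjusted p-values by limma lay between 0.302 and 0.418. A higher mean in P was found for 2 of 5 microglia and 4 of 7 astrocyte markers. The same held for 3 of 6 oligodendrocyte and 3 of 5 choroid plexus markers. These included Csf1r (0.23 ± 0.11) and Itgam (0.13 ± 0.15) of microglia and Folr1 (0.29 ± 0.13) of choroid plexus. The median differences were -0.09 for 3 neuron markers, 0.03 for 7 astrocyte, 0.02 for 6 oligodendrocyte, 0.00 for 5 microglia, 0.04 for 2 endothelial, 0.03 for 5 choroid plexus and -0.04 for 4 liver and erythroid markers. With date as a block 1 marker was called, beside 5.72% of all probes, 4.07% lower in P. That marker was Aif1, a protein of microglia (-1.23, limma adjusted p = 0.0154). It read 8.77, 8.21, 9.41 and 9.09 in P 1 to P 4 and 9.60, 9.85 and 9.59 in NP, so P 1 and P 2 were lowest, as for Idi1. The summed signal of the 5 microglia markers, in which Csf1r weighs most as the brightest, was 11.56 to 11.69 in P and 11.54 to 11.74 in NP. That of the 5 oligodendrocyte markers with a value on every array was 14.15 in P 1, 14.14 in P 2, 14.28 in P 3 and 14.43 in P 4, and 14.39, 14.11 and 14.30 in NP 2 to NP 4. Their part in the enzyme signals was not tested. The probe of the neuron marker Snap25 (-0.23 ± 0.16) was above background on 1 of 4 P and 2 of 3 NP arrays. Uchl1, above background on all 7, had a higher mean in P (0.37 ± 0.17). The neuron median of -0.09 is the difference of Stmn2, which had values in 1 of 4 P and 2 of 3 NP rats.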
